A study of Mus musculus with 65 samples.

Results

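The nuclear-encoded genes of oxidative phosphorylation were examined in 65 single cells from the cortex of pooled C57BL/6J mouse embryos at E13.5. The group consists of every row of the count table whose symbol begins with Nduf, Uqcr or Atp5, is Sdha, Sdhb, Sdhc or Sdhd, or begins with Cox followed by a digit from 4 to 8. This rule took 83 of 11971 genes and used no measured value. Of the 83 genes, 35 were assigned to complex I, 4 to complex II, 8 to complex III, 13 to complex IV and 15 to complex V. The other 8 are no subunits: the complex I assembly factors Ndufaf1 to Ndufaf7, and Atp5sl. Complex IV here includes Ndufa4, named as complex I but assigned to complex IV in newer work. It also includes Cox7a2l, a Cox7a family member of respiratory supercomplexes, which is counted among the subunits. None of the 13 mitochondrially encoded subunits has a row, so that only the nuclear side of each complex could be described.

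Oxidative phosphorylation takes place in the inner mitochondrial membrane. Complexes I and II pass electrons from NADH and succinate to ubiquinone, complex III passes them to cytochrome c and complex IV to oxygen, and complex V, the ATP synthase, makes ATP from the proton gradient that complexes I, III and IV build up. In the developing cortex, progenitors divide near the ventricle and give rise to neurons that migrate outward, and metabolism is known to shift during that passage.

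All cells carry the same labels: wild-type strain with no allele or agent named, cortical hemispheres without the ganglionic eminences, cells negative for the dead-cell stain propidium iodide, and the cell type name neural progenitor. Tissue from several embryos went into 1 pool without a record of the animal behind each cell, so that the 65 cells are 1 sample and no p-value was computed. The label covers a mixture. Sox2, a transcription factor of apical progenitors, reached 10 CPM (counts per 1000000 reads of the cell) in 22 cells. Eomes of intermediate progenitors did so in 20 cells, Neurod6 of young excitatory neurons in 16 and Dlx5 of interneurons and the ventral forebrain in 11. These 4 sets of cells are called classes below. They overlap: 10 cells were in the Eomes and the Neurod6 class, 4 in the Sox2 and the Dlx5 class and 3 in the Sox2 and the Eomes class, while 13 cells were in none. A class is a range of 1 marker and not a cell type. Among all 65 cells, inside or outside the classes, 2 had Sox2 between 5 and 20 CPM and 2 had Eomes there.

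Reads counted per cell ran from 85338 to 32130629, with 14609426 as the median, and 3 cells had fewer than 1000000. The sample titles part the cells into sets 1, 2 and 3 of 31, 13 and 21 cells, which the labels do not explain. Red cell genes moved with the sets and the classes. Their summed level, over 6 of 10 listed genes measured, had a median of 0.885 CPM in set 1, 609 CPM in set 2 and 736 CPM in set 3. It was 462 CPM in Sox2, 198 CPM in Eomes, 36.7 CPM in Neurod6 and 122 CPM in Dlx5 cells. Its part in the differences between classes below was not tested. Of the 4 microglial genes measured, C1qb, C1qc and Aif1 reached 10 CPM in 0 cells and Cx3cr1 in 4. Summed mural and meningeal genes had a median of 0 CPM over all cells, but up to 19800 CPM in cells with none of the 4 markers. Summed Cajal-Retzius genes had a median of 0.126 CPM in Neurod6 cells, but up to 7205 CPM. None of the 4 endothelial genes listed has a row.

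The promoters of 3 genes are shown because these genes encode the same mature protein, subunit c, which forms the rotating ring of the ATP synthase, and because their levels differed between classes (below). Each sequence runs 5′ to 3′ from 250 bases before to 50 bases after the annotated start, on the minus strand, from RefSeq with build GRCm38.p6. Capitals mark matches to the NRF1 motif. NRF1 is a transcription factor known for its sites in promoters of respiratory genes.
Atp5g1 (chr11:96075582-96075881): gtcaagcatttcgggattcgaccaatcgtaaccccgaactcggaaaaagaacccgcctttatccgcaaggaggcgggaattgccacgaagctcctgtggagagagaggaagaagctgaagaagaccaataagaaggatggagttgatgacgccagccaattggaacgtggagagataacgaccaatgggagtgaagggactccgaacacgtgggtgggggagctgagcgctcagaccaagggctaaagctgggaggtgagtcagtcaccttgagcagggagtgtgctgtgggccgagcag
Atp5g2 (chr15:102670998-102671297): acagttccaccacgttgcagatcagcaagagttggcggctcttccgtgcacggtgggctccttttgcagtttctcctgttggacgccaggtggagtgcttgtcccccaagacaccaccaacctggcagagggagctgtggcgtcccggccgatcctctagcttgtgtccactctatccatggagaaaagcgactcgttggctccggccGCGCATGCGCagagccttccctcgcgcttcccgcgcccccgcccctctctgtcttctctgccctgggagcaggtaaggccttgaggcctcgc
Atp5g3 (chr2:73911277-73911576): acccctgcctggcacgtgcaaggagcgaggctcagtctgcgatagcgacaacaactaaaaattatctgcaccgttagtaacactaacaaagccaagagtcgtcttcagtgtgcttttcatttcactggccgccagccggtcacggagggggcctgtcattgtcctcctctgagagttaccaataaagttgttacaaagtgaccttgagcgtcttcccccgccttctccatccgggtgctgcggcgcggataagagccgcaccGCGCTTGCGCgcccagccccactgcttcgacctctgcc
The Atp5g2 promoter held the NRF1 motif 42 bases before the start and the Atp5g3 promoter 13 bases after it, while these letters are not in the Atp5g1 window. The promoter of Sdha, the flavoprotein subunit of complex II, is shown because it held the motif at 3 positions, 98, 55 and 10 bases before the start.
Sdha (chr13:74350191-74350490): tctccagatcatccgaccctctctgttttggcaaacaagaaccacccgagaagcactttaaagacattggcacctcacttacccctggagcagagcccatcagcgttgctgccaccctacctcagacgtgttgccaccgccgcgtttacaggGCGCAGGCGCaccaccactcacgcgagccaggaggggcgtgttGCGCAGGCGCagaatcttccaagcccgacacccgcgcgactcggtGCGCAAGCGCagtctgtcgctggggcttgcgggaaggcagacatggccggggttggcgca
Promoters were found for 69 of the 83 genes. The NRF1 motif, GCGCA and GCGC parted by 1 base and searched on both strands, was in 26.1% of these genes, in 12.1% of the genes of the count table with a promoter and in 5.19% of all genes of the promoter table. The ETS motif CCGGAAG was in 24.6%, 20.2% and 9.93%, and the YY1 motif AAGATGGCG in 10.1%, 3.76% and 1.64%. The motifs do not contain each other. A match is a description of letters, and binding was not measured.

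The genes were among the most widely detected of the table. A gene of the group was at 10 CPM or more in a median of 54 of 65 cells, against 10 cells for all genes. In 60 or more cells this level was reached by 27 of the 83 genes, or 32.5%, against 2.32% of all genes. Together they took 2.86% of all reads, and in single cells from 1.47% to 6.02% with a median of 2.27%. Their values were mostly far from the 10 CPM bound: 62.7% of gene and cell pairs were at 100 CPM or more and 22.4% under 1 CPM, with 3.76% between 1 and 10 CPM.

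The complexes differed in how widely their genes were detected. Complex V genes were at 10 CPM or more in a median of 62 cells (49 to 63) and complex IV genes in 61 (3 to 65). Complex III genes reached that level in a median of 55 cells (28 to 62), complex I genes in 53 (27 to 61) and complex II genes in 39.5 (31 to 56). The 7 assembly factors Ndufaf1 to Ndufaf7 were lower, at a median of 13 cells. Of the 27 genes in 60 or more cells, 14 belong to complex V, 7 to complex IV, 3 each to complexes I and III and 0 to complex II.

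Levels between genes were compared only as mean CPM per kilobase of transcript. By this scale the median gene of complex V was at 637, of complex IV at 570, of complex III at 359, of complex I at 252 and of complex II at 143 CPM per kilobase. Across the 75 subunit genes, level per length had a Spearman correlation of -0.70 with length, which is also its divisor. Median lengths were 838, 645, 955, 971 and 2065.5 bases in complexes V, IV, III, I and II. The part of length in the order of the complexes was not tested. The highest level per length was that of Cox4i1, a nuclear-encoded subunit of complex IV, with 1266 CPM per kilobase. It was followed by Atp5o of the stalk that holds the ATP synthase still, with 1183, and by Uqcr11, a small subunit of complex III, with 1044. In complex I, the supernumerary subunits Ndufa7, Ndufb8 and Ndufc2 led with 795, 660 and 551 CPM per kilobase. In complex II, Sdhb, the iron-sulfur subunit, stood at 421, the membrane anchor Sdhd at 222, Sdha at 64.7 and the other anchor Sdhc at 54.1.

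These levels rest on the transcript taken for each gene, the longest principal one. For some genes it is very long, such as 4715 bases for Atp5g1, 4371 for Ndufb2, 3479 for Ndufab1 and 3171 for Sdhc, and their levels per length may be understated. With the median length of principal transcripts paired with a RefSeq mRNA, a definition chosen after the first lengths and levels had been seen, 12 of the 83 lengths differed. Ndufc1 then took the place of Ndufc2 among the 3 highest of complex I, with 639 CPM per kilobase, and Cox6c that of Cox6b1 in complex IV, with 994. Ndufb2 moved from 10.9 to 105 CPM per kilobase, and the order of the complexes' medians was the same.

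Longer subunit genes were detected in fewer cells. Across the 75 subunit genes, the length of the transcript and the number of cells at 10 CPM or more had a Spearman correlation of -0.45, and of -0.40 with the other definition of length. Over 8135 genes of the table with a mean of 10 CPM or more and a length, it was -0.11. The points share the same cells and libraries, and genes are not independent replicates. Cox7c, named here after its values were seen, is a small subunit of complex IV with a transcript of 540 bases and was above 10 CPM in all 65 cells, from 39.1 to 1535 CPM with a median of 230. Ndufs1, the largest subunit of complex I, with 2661 bases, reached 10 CPM in 27 cells. Length did not order all genes: Atp5a1, the alpha subunit of the ATP synthase, has 2471 bases and was found in 60 cells, while Uqcrfs1, the Rieske iron-sulfur protein of complex III, has 1363 bases and was found in 28.

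**Figure D1:**
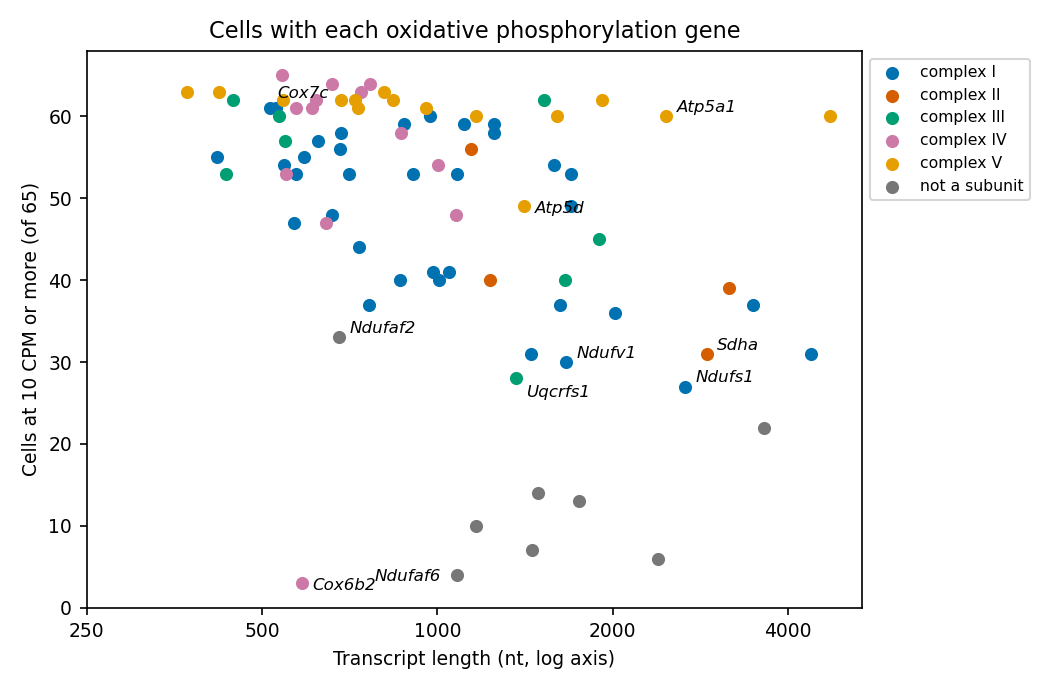
Transcript length in bases (x axis, log scale) against the number of the 65 cells at 10 CPM or more (y axis), 1 point per gene, coloured by complex. Complex V genes sit between 49 and 63 cells over all lengths, complex I genes spread from 27 to 61, and Cox6b2 and 7 of the 8 genes that are no subunits lie under them.

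Within complex I, the 7 nuclear genes of the catalytic core, which carry the flavin and iron-sulfur clusters, were detected in fewer cells than the 28 supernumerary subunits. The core genes were at 10 CPM or more in a median of 40 cells and the supernumerary ones in 53.5. The median level per length was 197 CPM per kilobase for the core and 293 for the supernumerary genes. Core transcripts were also longer, with a median of 1623 against 812 bases. A cell held a median of 4 of the 7 core genes at 10 CPM or more, from 1 to 7. All 7 were found in 7 cells, all of title set 1.

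Some subunits of complex IV have tissue-specific copies, and both copies were measured for 1 pair. Cox6b1, a subunit of complex IV, reached 10 CPM in 62 cells, while Cox6b2, known as the testis form, did so in 3. Cox4i1 and Cox7a2 did so in 64 cells each, Cox6a1 in 61 and Cox8a in 53. Their partners Cox4i2, Cox6a2, Cox7a1, Cox8b and Cox8c, and Ndufa4l2, the partner of Ndufa4, have no row, so that nothing can be said of their levels. Many of these small genes have near-identical processed copies in the genome, and reads that match more than 1 copy make their values uncertain.

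The spread across cells followed detection. The median SD of log2(CPM + 1) was 2.10 in complex V, 2.25 in complex IV, 2.90 in complex III, 3.13 in complex I and 3.79 in complex II. It was smallest for Cox7c, with 0.99. Among the 75 subunits, longer genes had the larger SD, with a Spearman correlation of 0.49.

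A cell had a median of 64 of the 83 genes at 10 CPM or more, from 38 to 76. The classes were alike, with medians of 65 in Sox2, Eomes and Neurod6 cells, 64 in Dlx5 cells and 62 in cells with none of the markers. The title sets differed more, with medians of 69, 53 and 65 in sets 1, 2 and 3. The number of these genes moved with the share of all genes at 10 CPM in the same cell, with r = 0.76 over 65 cells and 0.89, 0.61 and 0.72 within the sets. It also moved with log10 reads, with r = 0.51. Set 2 was lowest in the mean level of the 83 genes too, 5.10 ± 0.73 (SD, 13 cells) against 6.16 ± 0.69 (31 cells) in set 1 and 6.57 ± 0.72 (21 cells) in set 3, on the log2(CPM + 1) scale. Whether the sets are batches was not tested.

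**Figure D2:**
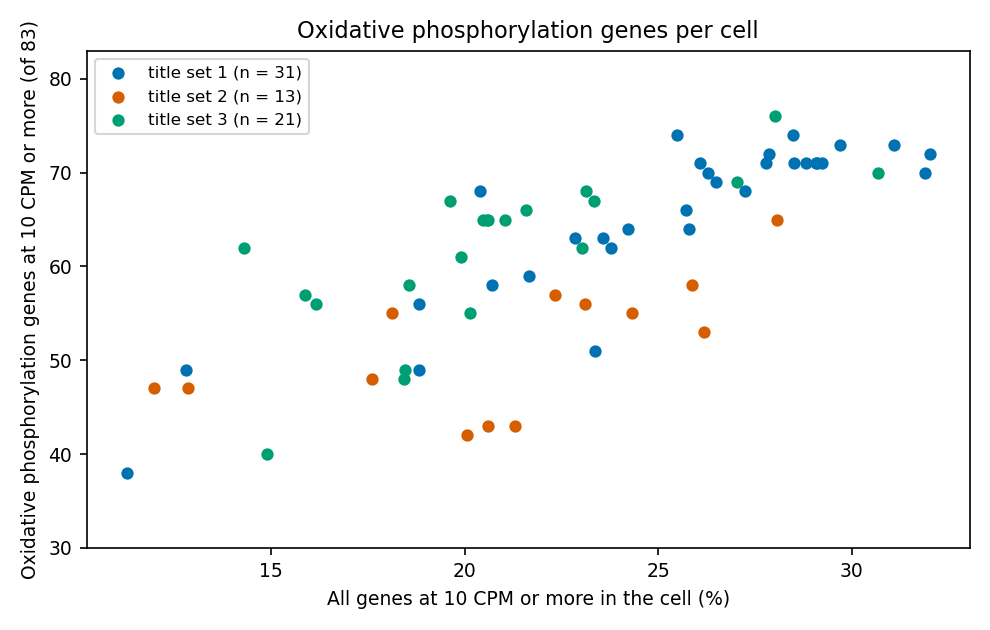
Share of all 11971 genes at 10 CPM or more in a cell (x axis, percent) against the number of the 83 oxidative phosphorylation genes at that level (y axis), 1 point per cell, coloured by title set. Cells of set 2 (median 53) mostly lie under those of sets 1 and 3 (medians 69 and 65).

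The genes varied together only weakly. Over all pairs of the 83 genes the median Pearson correlation of log2(CPM + 1) across the 65 cells was 0.09, and it was 0.11 within a complex and 0.09 between complexes. Pairs of all genes with a mean of 10 CPM or more had a median of 0.02. Among genes at 10 CPM or more in at least 40 cells, it was 0.12 for the group and 0.06 for all genes. Within the title sets the median over the group was 0.05 in each. Complex V had the highest median among the 3 complexes with the most genes, 0.14, against 0.11 in complex I and 0.07 in complex IV. Over all cells the mean levels of complexes I and V had the highest correlation, r = 0.72, and those of complexes II and IV the lowest, r = 0.12. Within the sets the order differed: complexes I and V had 0.60, 0.81 and 0.60, and complexes I and II had 0.71 in set 1. All points share depth and library, and these weak values are given as a description.

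Differences between classes were computed as the difference of the class means of log2(CPM + 1). A gene was counted when the means differed by at least 1 log2 unit, and cells in both classes were left out. The 3 comparisons with Sox2 cells share those cells, and the Eomes and Neurod6 classes share 10 cells. Neurod6 against Sox2 cells had 11 and 9, 2 and 6, and 3 and 7 cells in title sets 1, 2 and 3. Eomes against Sox2 cells had 10 and 8, 2 and 4, and 5 and 7. Dlx5 against Neurod6 cells had 7 and 11, 2 and 2, and 2 and 3. Dlx5 against Sox2 cells had 5 and 7 in set 1 and only 1 Dlx5 cell in set 2 and in set 3. Values within sets 2 and 3 below rest on these few cells. Counts are given beside the same share of all 11971 genes. Counts are also given relative to the median difference of genes with a mean of 10 CPM or more, called the centred split, because that median was -0.17, -0.20 and -0.29 in the comparisons of Neurod6, Eomes and Dlx5 cells with Sox2 cells.

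The shares of genes counted as higher were near those of all genes, while the shares of lower ones differed more in the comparisons with Eomes or Dlx5 cells. Beside genes with a mean of 10 CPM or more (below), the shares of lower ones differed mainly in Dlx5 against Sox2 cells. In Neurod6 cells (16) against Sox2 cells (22), 11 of 83 genes were higher (13.3%) and 15 lower (18.1%), against 12.6% and 16.3% of all genes. The centred split was 14 higher and 12 lower. The median difference was -0.14 for the group and -0.08 for all genes. In Eomes cells (17) against Sox2 cells (19), 9 were higher (10.8%) and 19 lower (22.9%), against 10.1% and 16% of all genes. The centred split was 14 and 14, and the median difference -0.15 for the group and -0.09 for all genes. In Dlx5 cells (7) against Sox2 cells (18), 14 were higher and 14 lower (16.9% each), against 14.4% and 21.8%, and the centred split was 21 and 11. The median difference was 0.10 for the group and -0.15 for all genes. In Dlx5 cells (11) against Neurod6 cells (16), 10 were higher (12%) and 15 lower (18.1%), against 12.5% and 14%. Here 54 of the 83 differences were positive, with a median of 0.28 for the group and -0.002 for all genes. A setting without title set 2 was chosen after seeing the data. Its counts were 9 higher and 21 lower, 11 and 21, 11 and 24, and 18 and 13 in these 4 comparisons. The last counts turned their direction, while the median difference there stayed positive, at 0.42 against -0.01 for all genes. The share of all genes beyond 1 log2 unit was then 31.6%, 28.7%, 39.3% and 28.9%. Genes with a mean of 10 CPM or more had median differences of -0.19, -0.19, -0.41 and -0.05 there. With classes bounded at 50 CPM the counts were 12 and 11, 18 and 12, 26 and 11, and 16 and 13. With cells of exactly 1 marker they were 14 and 24, 16 and 20, 10 and 21, and 22 and 14. The shares of all genes beyond 1 log2 unit were 29.1%, 26.3%, 34.5% and 27.7% with the first setting. With the second they were 41.6%, 34.7%, 37.2% and 39.7%. Genes with a mean of 10 CPM or more had median differences of -0.09, -0.06, -0.03 and 0.03 with the first setting. With the second these medians were -0.33, -0.29, -0.30 and -0.01. Within the title sets the counts turned as well. Neurod6 against Sox2 cells had 7 higher and 28 lower in set 1 but 27 and 10 in set 3. Dlx5 against Neurod6 cells had 26 and 13 in set 1 but 14 and 29 in set 3, with median differences of 0.54 and -0.17. The shares of all genes beyond 1 log2 unit there were 38.6% and 46.9%, and 33.2% and 45.4%. In Neurod6 against Sox2 cells the group had median differences of -0.55 in set 1 and 0.16 in set 3. Genes with a mean of 10 CPM or more leaned alike in set 1, at -0.44, and had 0.006 in set 3. In Dlx5 against Neurod6 cells such genes had 0.01 and -0.09. Shares of all genes by direction were not computed for these settings.

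With the same sign also asked for in every title set that held at least 2 cells of both classes, 5 genes were higher and 7 lower in Neurod6 against Sox2 cells, against 6.28% and 10.4% of all genes. In Eomes against Sox2 cells 3 were higher and 13 lower, against 4.34% and 10.1%. In Dlx5 against Neurod6 cells 5 were higher and 9 lower, against 4.33% and 6.78%. In Dlx5 against Sox2 cells, where the rule rests on set 1 alone, 12 were higher and 13 lower, against 12.6% and 21.1%. Most of the 83 genes are well detected, and among genes with a mean of 10 CPM or more the shares beyond 1 log2 unit were larger. They were 17.1% higher and 22.3% lower in Neurod6 against Sox2 cells, and 13.8% and 21.9% in Eomes against Sox2 cells. In Dlx5 cells they were 18.5% and 29% against Sox2 cells, and 16.7% and 18.9% against Neurod6 cells. Of the group, 81 genes had such a mean. Their shares were 13.6% and 18.5% in Neurod6 against Sox2 cells, and 11.1% and 23.5% in Eomes against Sox2 cells. In Dlx5 cells they were 17.3% each against Sox2 cells, and 12.3% and 18.5% against Neurod6 cells.

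Cell-to-cell spread was larger than nearly all of these differences. The difference was at least as large as the pooled SD across cells for 0 genes in Neurod6 against Sox2 cells, where 1.48% of all genes were higher and 1.9% lower by that rule. In Eomes against Sox2 cells it was so for Atp5g1 alone, with 0.702% and 1.17% of all genes. In Dlx5 against Sox2 cells it was so for Ndufaf2, Atp5d and Uqcrq, all lower, with 1.57% and 3.58% of all genes. In Dlx5 against Neurod6 cells Atp5g2 was higher and Ndufs4 and Ndufaf2 lower, with 0.777% and 1.27% of all genes.

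**Figure D3:**
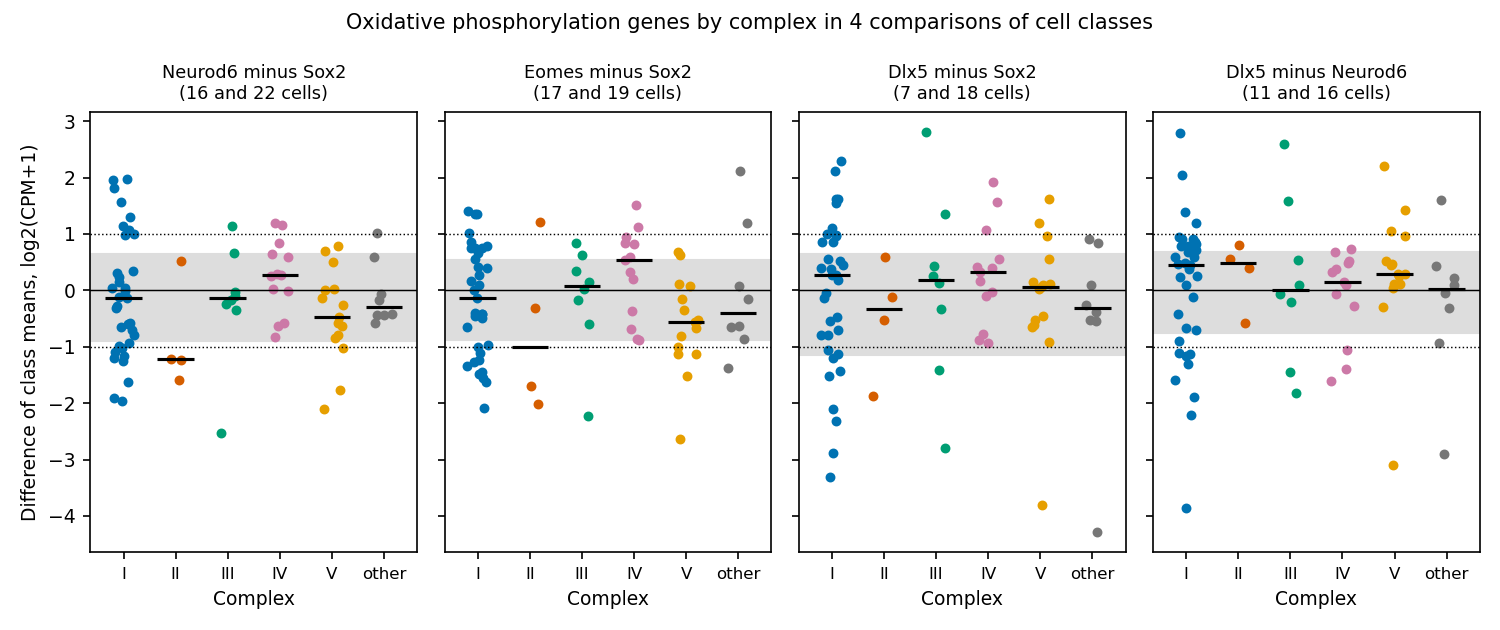
Difference of class means of log2(CPM + 1) (y axis) for each gene by complex (x axis) in the 4 comparisons, with the median of each complex as a bar, the bound of 1 log2 unit dotted and the central 50% of genes with a mean of 10 CPM or more in grey. The complexes' medians stay within the dotted lines apart from complex II in Neurod6 and Eomes against Sox2 cells, where they are -1.22 and -1.01. Complex II has 4 genes, and its mean level differed by -2.20, 0.96 and -0.21 in title sets 1, 2 and 3 in Neurod6 against Sox2 cells. In Eomes against Sox2 cells it differed by -1.63, -0.54 and -0.17.

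In complex V, the genes of subunit c had lower mean levels in Neurod6 than in Sox2 cells. The 3 genes are close copies, and reads that match more than 1 of them make their values uncertain. Atp5g1 ran from 23.4 to 1647 CPM with a median of 377 in the 22 Sox2 cells and from 0 to 1093 CPM with a median of 141 in the 16 Neurod6 cells. Atp5g2 ran from 35.2 to 1493 CPM with a median of 530 in Sox2 cells and from 0.835 to 610 CPM with a median of 263 in Neurod6 cells. Atp5g3 ran from 35.2 to 1047 CPM with a median of 407 in Sox2 cells and from 0.719 to 887 CPM with a median of 290 in Neurod6 cells. The ranges overlap for each gene, and the difference of means was -1.77 for Atp5g1, -2.10 for Atp5g2 and -1.03 for Atp5g3, against pooled SDs of 1.97, 2.11 and 1.79. No other gene of complex V was beyond 1 log2 unit in this comparison. Atp5g1 and Atp5g2 were lower in each of the 3 title sets, and Atp5g3 in sets 1 and 2 but higher by 0.16 in set 3.

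In Eomes cells, Atp5g1 was lower by the largest difference of the group, -2.64, with a median of 109 CPM (0 to 1887) in 17 cells against 425 CPM (283 to 1647) in 19 Sox2 cells. It was -2.23, -3.33 and -2.59 in the title sets. Atp5g2 differed by -1.51, Atp5b of the catalytic head by -1.13, Atp5d of the central stalk by -1.13 and Atp5h of the peripheral stalk by -1.01. Dlx5 cells did not have the lower level of subunit c genes. Against Neurod6 cells they were higher by 2.20 in Atp5g2, 1.43 in Atp5g1 and 0.96 in Atp5g3. Only Atp5g2 was higher in each title set, while Atp5g1 was lower in set 2 and Atp5g3 lower in set 3, with few cells there.

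Summed over the 3 genes, the level was highest in Sox2 and Dlx5 cells. The sum had a median of 1361 CPM in Sox2 cells (93.7 to 3333), 861 CPM in Eomes cells (93.7 to 5049), 832 CPM in Neurod6 cells (162 to 2515) and 1183 CPM in Dlx5 cells (843 to 3418). Ranges overlap between all classes. On the log2 scale the sum differed by -0.98 between Neurod6 and Sox2 cells, and by -0.97, -1.24 and -0.62 within the title sets. In Eomes against Sox2 cells it was -1.01, and -1.02, -1.94 and -0.31 within the sets. In Dlx5 against Neurod6 cells it was 1.04, and 0.97, 1.70 and 0.90 within the sets, and in Dlx5 against Sox2 cells 0.09. Every cell had the sum at 10 CPM or more. All 3 genes were at that level in 22 of 22 Sox2, 15 of 20 Eomes, 11 of 16 Neurod6 and 11 of 11 Dlx5 cells. The summed red cell genes were also higher in Sox2 than in Neurod6 cells (462 against 36.7 CPM). Title sets differed too: the median of Atp5g1 was 267, 262 and 950 CPM in sets 1, 2 and 3.

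**Figure D4:**
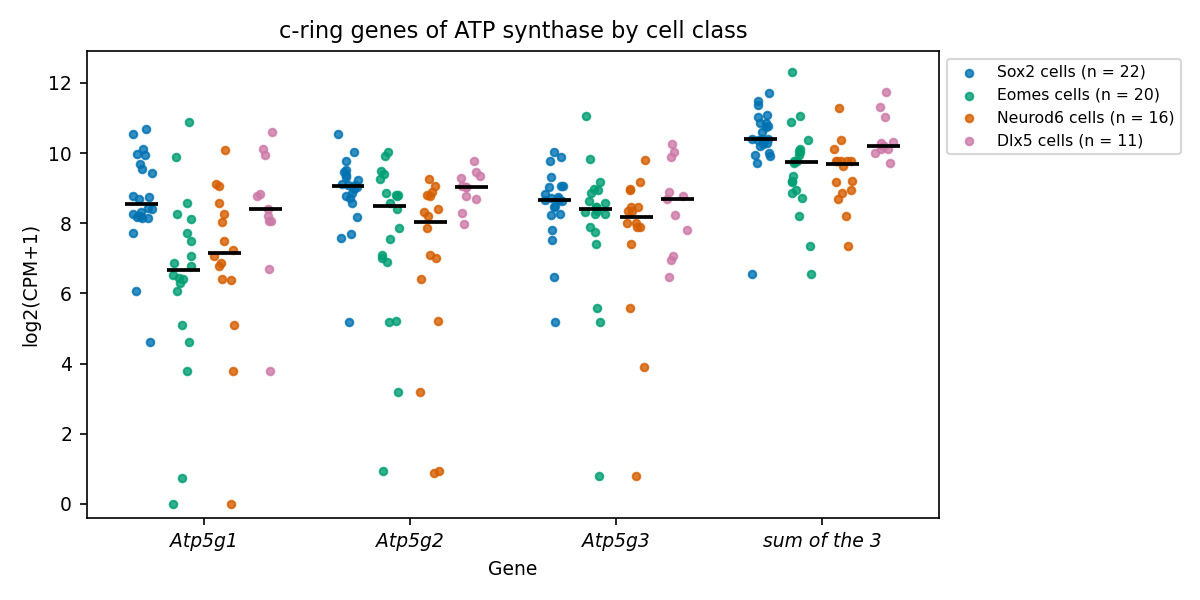
log2(CPM + 1) (y axis) of Atp5g1, Atp5g2, Atp5g3 and their sum (x axis) in each cell of the 4 classes, with the class median as a bar. The sum is lower in Eomes and Neurod6 than in Sox2 and Dlx5 cells (medians of 861 and 832 against 1361 and 1183 CPM), with overlapping cells.

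In complex I, core genes leaned higher and supernumerary genes lower in Neurod6 than in Sox2 cells. Of the 7 core genes 4 were higher by 1 log2 unit and 0 lower, with a median difference of 1.14. Of the 28 supernumerary genes 3 were higher and 8 lower, with a median of -0.45. Of all genes, 12.6% were higher and 16.3% lower. Neither direction held in each title set. The difference in the mean core level was -0.10, 1.63 and 2.42 in sets 1, 2 and 3, and that of the supernumerary genes -0.93, -0.54 and 0.80. Ndufv1, which binds NADH, ran from 0 to 435 CPM with a median of 104 in Neurod6 cells, and from 0 to 477 CPM with a median of 0.127 in Sox2 cells. It reached 10 CPM in 10 of 16 and 8 of 22 cells, a difference of means of 1.97 with a pooled SD of 3.68. Ndufs8, which carries iron-sulfur clusters on the path to ubiquinone, and Ndufs3, which lies beside it, were higher by 1.81 and 1.31.

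The supernumerary genes included both directions. Ndufs4, an accessory subunit known from mitochondrial disease, was at a median of 205 CPM (0.384 to 946) in Neurod6 and 88.4 CPM (0 to 973) in Sox2 cells, a difference of 1.96. Ndufb11 was higher by 1.07. Ndufa13 was lower by 1.90, with medians of 197 CPM (0 to 801) and 285 CPM (5.29 to 1290), and Ndufb5 was lower by 1.63 and Ndufa7 by 1.10. In Eomes against Sox2 cells, 3 core genes were higher and 1 lower (median 0.75) and 1 supernumerary gene was higher and 9 lower (median -0.42). Against Sox2 cells, Dlx5 cells had 4 core genes higher and 1 lower (median 1.55). Against Neurod6 cells they had 0 higher and 2 lower (median -0.70), with a difference in the mean core level of 0.56 in title set 1 but -2.59 and -1.12 in sets 2 and 3. The shares of all genes in these comparisons are those given above.

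**Figure D5:**
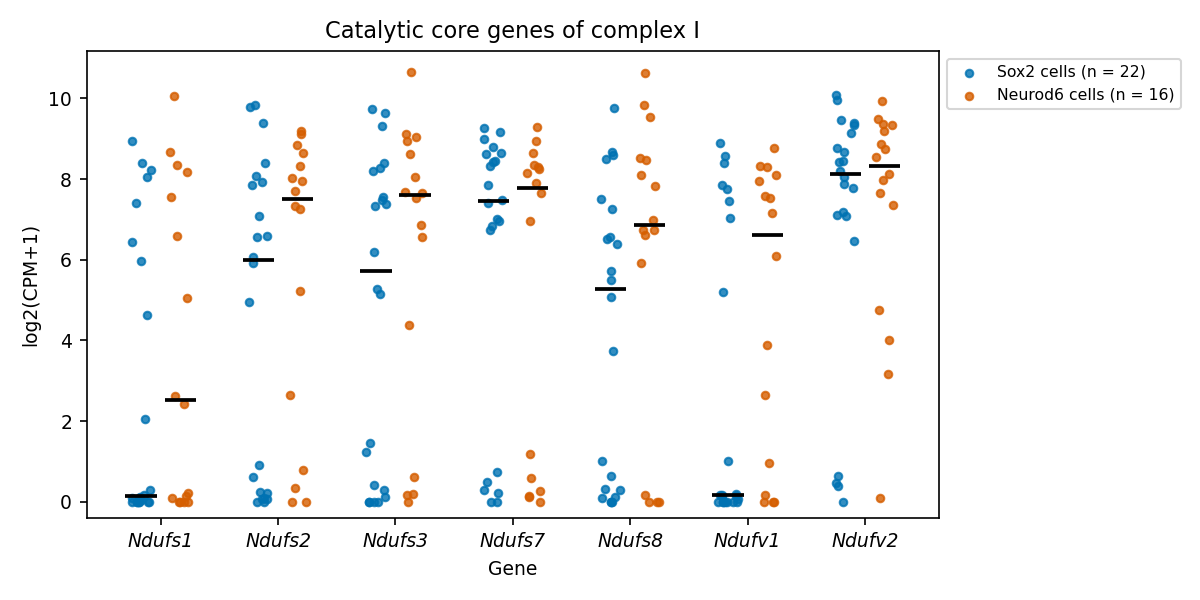
log2(CPM + 1) (y axis) of the 7 catalytic core genes of complex I (x axis) in each of 22 Sox2 and 16 Neurod6 cells, with the class median as a bar. Each gene has cells near 0 and cells above 8 in both classes, and Ndufv1 has medians of 0.127 and 104 CPM in the classes.

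In Dlx5 cells, 7 genes were lower by 1 log2 unit or more than in Neurod6 and than in Sox2 cells: Ndufs4, Ndufaf2, Atp5d, Ndufa11, Ndufa8, Ndufc2 and Uqcrq. Of all genes, 14% were lower in the first comparison and 21.8% in the second. Both comparisons share the Dlx5 cells, and the share of all genes lower in both was not computed. The number 7 is therefore not read as a trait of the group. Dlx5 cells were not compared with Eomes cells. Ndufs4 had a median of 4.21 CPM (0 to 380) in 11 Dlx5 cells against 205 CPM in Neurod6 cells, a difference of -3.86. Ndufaf2, an assembly factor of complex I, had a median of 0.0632 CPM (0 to 98.0) and 50.5 CPM (0 to 178), a difference of -2.90. Atp5d, the delta subunit in the central stalk of the ATP synthase, had medians of 15.1 CPM (0 to 581) and 247 CPM (0 to 470), a difference of -3.10. Ndufa11, Ndufa8, Uqcrq and Ndufc2 differed by -2.22, -1.89, -1.46 and -1.16 between Dlx5 and Neurod6 cells. Uqcrfs1 was higher by 2.60, with medians of 191 and 0.194 CPM and 10 CPM reached in 8 of 11 and 7 of 16 cells. Only 7 Dlx5 cells entered the comparison with Sox2 cells, and only title set 1 had at least 2 cells of both classes.

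Against Sox2 cells, the 7 Dlx5 cells were lowest in Ndufaf2, Atp5d and Ndufa11. Ndufaf2 had a median of 0 CPM (0 to 38.6) against 88.9 CPM (0 to 410) in 18 Sox2 cells, a difference of -4.29 with a pooled SD of 2.57. Atp5d had medians of 0.147 CPM (0 to 378) and 149 CPM (0 to 753), a difference of -3.81. Ndufa11, an accessory subunit of complex I, differed by -3.32. Uqcrq, a small subunit of complex III, had medians of 27.3 CPM (0.0805 to 433) and 189 CPM (10.4 to 710), a difference of -2.80. The ranges of the classes overlap for all of these genes. Genes with the higher level in Dlx5 cells came from several complexes. Ndufv2, a core subunit of complex I, had medians of 684 CPM (135 to 2355) and 304 CPM (0 to 1091), a difference of 2.11. Cox6a1 of complex IV had medians of 396 CPM (209 to 524) and 204 CPM (0 to 399), a difference of 1.57. Atp5f1 of the peripheral stalk had medians of 1150 CPM (419 to 1955) and 739 CPM (0 to 1441), a difference of 1.62. In these 3 genes every Dlx5 cell was at 10 CPM or more, while 15, 16 and 16 of the 18 Sox2 cells were.

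The genes that are no subunits were low in most cells. Ndufaf2 was at 10 CPM or more in 33 of 65 cells and Ndufaf4 in 22. Ndufaf3 followed with 14 cells, Ndufaf7 with 13, Ndufaf5 with 10, Ndufaf1 with 7, Atp5sl with 6 and Ndufaf6 with 4. Per length their median was 21.3 CPM per kilobase.

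Of the 4 complex II genes, Sdha, Sdhb and Sdhd were lower in Neurod6 than in Sox2 cells, by 1.59, 1.21 and 1.23, and Sdhc differed by 0.52. Sdhb had a median of 368 CPM (0 to 753) against 561 CPM (0.243 to 1687), and it was the only one of them with the same sign in the 3 sets. The mean level of the 4 genes differed by -0.88, with SDs across cells of 2.20 in Neurod6 and 2.33 in Sox2 cells. Within sets 1, 2 and 3 it differed by -2.20, 0.96 and -0.21. Sdhd was lower by 2.02 in Eomes than in Sox2 cells, with medians of 2.36 CPM (0 to 682) and 349 CPM (0.178 to 926). In complex III, Uqcr10, a small subunit, was lower by 2.53 in Neurod6 cells, with a median of 65.5 CPM (0 to 246) against 230 CPM (0 to 1332), and by 2.22 in Eomes cells. It was the largest difference of the group in the first of these. In complex IV, 2 of 13 genes were higher and 0 lower in Neurod6 against Sox2 cells, where 12.6% and 16.3% of all genes were, and Cox5b was higher by 1.51 in Eomes than in Sox2 cells.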

How the data were processed

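The deposited table holds raw counts, whole-number reads per gene and cell for 65 cells and 11971 genes; per the submitters' processing notes TopHat2, HTSeq and mm9 were named without versions or roles. The rarest genes of the table have reads in 5 cells. The SMARTer kit keeps neither strand nor molecular identifiers. The 83 genes, the gene lists and the markers were chosen with earlier results of these data known.

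Counts were scaled to CPM and logged as log2(CPM + 1) in Python 3.11.15 with pandas 2.3.3 and numpy 2.4.6; scran 1.30.0 size factors in R 4.3.3 were an alternative. Lengths are those of the longest principal transcript of GENCODE M21, available for all 83 genes. A second definition was added after the first lengths and levels were seen. Genes named are up to 10 per direction and comparison beyond 1 log2 unit and of 1 sign in all title sets that hold 2 or more cells of both classes, copies, complex II, the 3 highest per length and the 2 in the fewest cells of each complex, the rows that are no subunits, and up to 5 per pathway list; Cox7c, Cox6c, Ndufb2 and Ndufc1 fall outside this rule and were chosen after their values were seen. Depth ran from 85338 to 32130629 reads per cell. Alternatives covered scaling, pseudocount, class bound, filters, sets and cells. The script was tested on simulated data.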

Additional observations from a re-analysis of the deposited data

How the results depend on the processing

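No paired analysis was possible because the cells form 1 group and no test was made. The median differences and the number of genes per cell moved by less than the spread between cells under every alternative run. The median correlation between genes was 0.086 and ran from 0.050 within title set 1 to 0.099 with scran size factors. The median differences still changed sign under some, such as 0.23 for Eomes minus Sox2 with a class bound of 50 CPM and -0.12 for Dlx5 minus Sox2 without title set 2. Counts of genes beyond 1 log2 unit moved more. With a pseudocount of 10 CPM they were 10 in place of 26 for Neurod6 minus Sox2, 12 in place of 28 for Eomes minus Sox2 and 12 in place of 25 for Dlx5 minus Neurod6; the share of all genes went from 29% to 12.1%, from 26.1% to 10.1% and from 26.5% to 10.8%. Within title set 2 they were 52, 56 and 53, and for Dlx5 minus Neurod6 39 within set 1 and 43 within set 3, where 50.5%, 48.8%, 43.5%, 33.2% and 45.4% of all genes were beyond 1. Without title set 2, a setting chosen after seeing the data, they were 30, 32, 35 and 31, where Dlx5 minus Sox2 had 28. Values of named genes within title sets could not change sign, since the genes counted were named for having 1 sign there, and 8 values changed sign under other alternatives. With cells of exactly 1 marker, Ndufa13 in Eomes minus Sox2 was 0.57 and Idh3a in Dlx5 minus Neurod6 -0.74. In Dlx5 minus Sox2, with a class bound of 50 CPM Atpaf2 was 0.039, Cs 0.50 and Ndufa12 0.24, and with class medians Atpaf2 was 0.070, Ndufa12 0.21 and Dlst 0.11. The cause was not tested. The correlation of length with cells was -0.45 with the longest principal transcript and -0.40 with the definition chosen after the first lengths and levels were seen. Few cells per class and set, and reads without molecular identifiers, limit all values.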

Other observations

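Of 12 genes for cytochrome c and outer partners of the chain, 0 were higher and 3 lower by 1 log2 unit in Neurod6 than in Sox2 cells. Etfa, a subunit of the electron transfer flavoprotein, was lower by 3.71 and at 10 CPM or more in 2 of 16 against 14 of 22 cells. Etfb, its partner, was lower by 1.89 and reached that level in 7 of 16 against 14 of 22 cells. Of 13 citric acid cycle genes, 3 were higher and 3 lower. Among the higher ones, Sucla2 had 1 sign in the 3 title sets. Ogdh, of the 2-oxoglutarate dehydrogenase complex, was lower by 2.12, with medians of 26.1 and 95.8 CPM, and Fh1, the fumarase, by 2.17. Of 9 genes of pyruvate entry, 2 were higher and 1 lower, which was Pdha1 of pyruvate dehydrogenase, by 2.69. These genes were named because they had 1 sign in the 3 title sets. Of 30 assembly factors outside the 83 genes 2 were higher and 1 lower, and of 17 genes of mitochondrial biogenesis 1 was higher and 2 lower. The shares of all genes were 12.6% and 16.3%.

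In Dlx5 against Sox2 cells, Mdh2 of the citric acid cycle was higher by 2.03, with medians of 1340 and 607 CPM, while 2 of the 13 genes of that list were higher and 5 lower, among them Dld, Cs and Dlst. Tfam, which packages mitochondrial DNA, was lower by 3.02. Of the 17 genes of mitochondrial biogenesis, 3 were higher, among them Vdac1 and Tomm20, and 4 lower. In that comparison 7 of 30 assembly factors were higher and 6 lower, against 14.4% and 21.8% of all genes.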
